A study of Mus musculus with 6 samples.

Results

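The genes described here are 34 genes of NRF2 signalling and antioxidant defence, taken by symbol from the 40879 gene symbols of the count files. They were followed in mouse primary cultures labelled as hepatic stellate cells, the retinoid-storing pericytes of the liver, in 3 libraries of cells kept for 24 h with APB-R3 and 3 libraries of cells kept for 24 h with vehicle. All 6 libraries came from wild-type male mice, whose age is not given in the labels. APB-R3 is an engineered form of the interleukin-18 binding protein, a secreted protein that holds IL-18 away from its receptor, and the series asks whether it attenuates stellate cell activation. The labels write the dose as 150 µg/ml in one place and 150 µg/kg in another, which leaves the unit open. Whether replicates were separate animals or cultures is not stated, so every p-value here reflects the spread among 6 libraries only, which may be technical.

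The libraries held 8323809, 10792531 and 10074669 counts with APB-R3 and 10431310, 10573916 and 10507141 counts with vehicle. The label of stellate cells was checked against 14 stellate cell markers, which had a median of 36.2 CPM (the gene's count scaled to a common library total). All had counts, and their sums were 2959 to 3314 CPM with APB-R3 and 3072 to 3115 CPM with vehicle, but most of each sum was Vim, which endothelial and other mesenchymal cells also express, with 1980.4 to 2396 CPM with APB-R3 and 1916 to 2118 CPM with vehicle. Over the 6 libraries the more specific markers were low, with means of 1.68 CPM for Lrat, 4.70 CPM for Des, 8.12 CPM for Pdgfrb and 11.5 CPM for Reln. Of the others, Lum averaged 1.24, Pdgfra 9.84, Rgs5 14.0, Col3a1 58.3, Acta2 114, Col1a2 119, Col1a1 139, Tagln 237 and Dcn 308 CPM. Acta2 had 103, 108 and 80.6 CPM with APB-R3 and 133, 131 and 129 CPM with vehicle. Its groups did not overlap, a separation in this direction that 4.16% of all genes tested showed. By direction, 5 of the 14 markers had a log2 fold change (APB-R3 over vehicle) above 0 and 9 below 0. Of all genes tested, 50.7% were above 0. Of the 14 markers 3 had an unadjusted edgeR p under 0.05, all lower with APB-R3, against 3.33% of all genes tested. None had an adjusted p under 0.05. For 14 markers of liver endothelium the median was 368 CPM, with means of 1715 CPM for Lyve1 and 1149 CPM for Cdh5. The markers therefore go against a label of stellate cells alone, since endothelial transcripts outweighed the specific stellate ones. The summed endothelial level ran from 7075 to 8165 CPM with APB-R3 and from 7525 to 8323 CPM with vehicle. All 13 macrophage and Kupffer cell markers had counts, with sums of 496 to 708 CPM with APB-R3 and 423 to 609 CPM with vehicle. All values below are therefore values of whole cultures, in which fewer cells of a type and less RNA per cell cannot be told apart. APB-R3 replicate 1 stood apart in the sum of 16 inflammatory genes, with 3714 CPM against 2479.9 and 2585 CPM in the other APB-R3 libraries and 2395 to 2629.7 CPM in vehicle. Most of its sum was Ccl2, with 1760 CPM, and Nfkbia, with 1207 CPM. Not every gene was highest there, since Saa3, with 7.57 CPM, lay below all vehicle libraries (10.7 to 27.6 CPM). Ptgs2 had 22.9 CPM there and 23.1 CPM in APB-R3 replicate 3. Vehicle replicate 2 stood apart in 11 hepatocyte markers, with 83.1 CPM, against 12.4 to 23.8 CPM with APB-R3 and 17.8 and 21.6 CPM in the other vehicle libraries.

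NRF2, encoded by Nfe2l2, is a transcription factor that KEAP1 holds in the cytoplasm and hands over for degradation. Oxidants and electrophiles modify KEAP1, NRF2 then gathers in the nucleus and, with small MAF proteins, binds antioxidant response elements of genes for glutathione synthesis, thioredoxin reduction, NADPH supply, quinone reduction and iron handling. In the liver these enzymes are known for protecting cells from reactive oxygen species, which are also known to promote stellate cell activation. Not all genes described here are NRF2 targets alone. Sod2 is also induced through NF-kB, and the metallothionein genes through metal response elements.

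For 29 of the 34 genes a promoter was available from RefSeq (build GRCm38.p6, whereas the reads were aligned to GRCm39), spanning 250 bases before to 50 bases after an annotated start. Some genes have several starts in the table, and a gene was counted if any of its promoters held a motif. The letters TGACNNNGC, the core of the antioxidant response element, were found on either strand in 10 of these 29 genes, or 34.5%, and in 14.0% of all 27025 genes of the table. Per promoter the background was 12.4%. In Prdx1, Mt2 and Me1 the match also overlapped TGANTCA, the letters of an AP-1 site, which 7.81% of all promoters held. The 7 matches that lay whole before the start are shown because they mark which of the genes carry this element close to their start. Each is read 5′ to 3′ on the strand of the gene, with the element in capitals, as TGACNNNGC or as its reverse complement.
Nfe2l2, at chr2:75704884-75704913 (minus strand): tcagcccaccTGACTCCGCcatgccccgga
Gclm, at chr3:122245413-122245442 (plus strand): gctcccgggcGCACCGTCAactctcacgag
Prdx1, at chr4:116685456-116685485 (plus strand): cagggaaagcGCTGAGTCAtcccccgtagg
Mt2, at chr8:94172529-94172558 (plus strand): aaagggggtgTGACTCAGCgcggggggtgg
Txnrd1, at chr10:82859104-82859133 (plus strand): ctggatttttGCTTTGTCAttctgacacgg
Sod1, at chr16:90220696-90220725 (plus strand): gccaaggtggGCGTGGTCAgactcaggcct
G6pdx, at chrX:74428918-74428947 (minus strand): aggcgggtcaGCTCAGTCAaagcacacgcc
Of the remaining 3 matches, those in Srxn1 and Pgd lay after the start, and that in Me1 spanned it. A match is a description of letters, and elements farther from the start lie outside these windows.

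Mt2 held the letters TGCNCNC at 6 positions of its 300 bases on either strand, and Mt1 at 3. This string is looser than the core of the metal response element, TGCRCNC, in which R is A or G. Of all promoters in the table, 51.0% held at least 1 such position, 7.10% at least 3 and 0.225% at least 6. The 200 bases before the start of Mt2 are shown with the 4 positions that lie there in capitals, since this promoter held both TGACNNNGC and TGCNCNC. Among the stretches in capitals, GGGAGCA and TGCTCTC do not match the stricter core on either strand.
Mt2, at chr8:94172418-94172617 (plus strand): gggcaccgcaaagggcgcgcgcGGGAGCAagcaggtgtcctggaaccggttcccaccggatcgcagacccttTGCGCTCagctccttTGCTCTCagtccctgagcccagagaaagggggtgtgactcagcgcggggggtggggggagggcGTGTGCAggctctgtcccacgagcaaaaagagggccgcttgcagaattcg

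None of the 34 genes differed between APB-R3 and vehicle at an adjusted p under 0.05, and neither did any other gene. All 34 passed the filter on low counts, 12776 genes were tested with edgeR's quasi-likelihood test, and 0 of them, or 0%, were called. The smallest adjusted p among the 34 was 0.9998. Of the 34 genes, 1 had an unadjusted p under 0.05, Sod2, which was higher with APB-R3, against 425 genes or 3.33% of all tested and 1.75% in that direction. No gene was called by DESeq2 (376 at an unadjusted p under 0.05) or by limma-voom (427), and in both Sod2 was the only one of the 34 at an unadjusted p under 0.05. Only in Mt1, 1 of the 34 genes, was there no overlap between the groups, against 8.91% of all genes tested. The count at an unadjusted p is near that of the whole table, and the share without overlap is below it.

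On the side of direction, 24 of the 34 genes had a log2 fold change (APB-R3 over vehicle) above 0, as had 50.7% of all genes tested. The median log2 fold change was 0.083 for the 34 genes and 0.0032 for all genes tested. Single values ran from −0.16 in Tkt to 0.50 in Nqo1. Like the p-values, the intervals of these values reflect the spread among 6 libraries only, which may be technical. The median SE was 0.111 for the 34 genes and 0.171 for all genes tested. For 30 of the 34 genes the 95% interval of the fold change, without multiple-testing adjustment, lay within 1.5-fold in either direction, as it did for 58.4% of all genes tested. The other 4 were Sod2, Prdx3, Nqo1 and Gsta4, and only Nqo1 and Gsta4, the genes with the fewest counts, had intervals that reached past 2-fold.

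**Figure D1:**
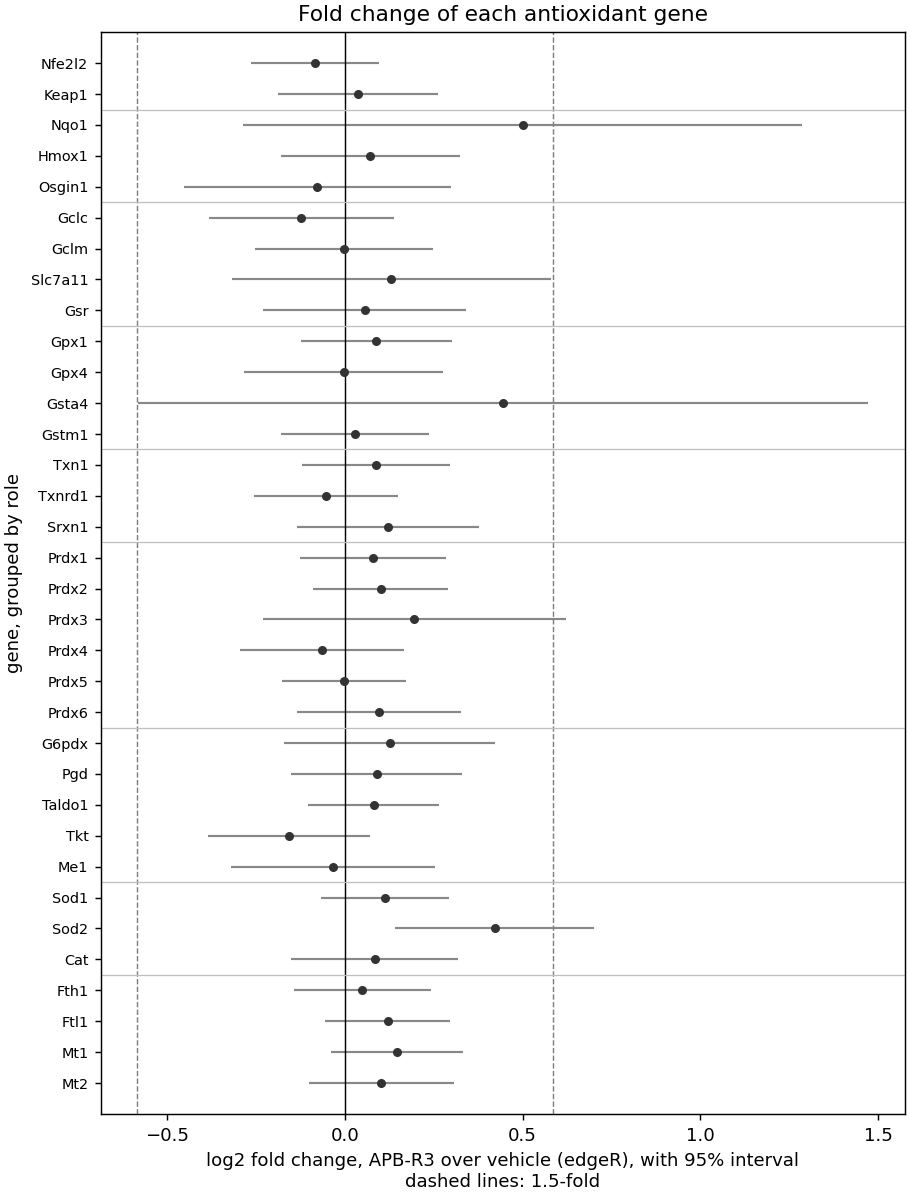
Log2 fold change (APB-R3 over vehicle, x axis) of each of the 34 antioxidant genes (y axis, grouped by role), with the 95% interval from edgeR and dashed lines at 1.5-fold. The interval of Sod2 alone lies wholly on one side of 0, and those of Nqo1 and Gsta4 are the widest.

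The size of the median moved most with 1 library. APB-R3 replicate 1 held the highest CPM of 17 of the 34 genes, against 19.5% of all genes tested. APB-R3 replicate 3 held the highest CPM of 10 of the 34 (18.5% of all genes) and APB-R3 replicate 2 of 2 (18.1%). Vehicle replicates 1, 2 and 3 held that of 2, 2 and 1 of them, against 13.5%, 16.3% and 14.1% of all genes. APB-R3 replicates 1, 2 and 3 held the lowest CPM of 4, 10 and 1 of the 34 genes, against 21.7%, 19.8% and 12.01% of all genes. Vehicle replicates 1, 2 and 3 held the lowest of 3, 7 and 9, against 12.7%, 20.4% and 13.5%. Without APB-R3 replicate 1, 20 of the 34 genes had a log2 fold change above 0 and the median was 0.016. The median was 0.13 without APB-R3 replicate 2 and 0.047 without vehicle replicate 3. APB-R3 replicate 1 was the library with the high sum of inflammatory genes and the lowest summed endothelial markers, 7075 CPM. What part these signals had in the antioxidant values was not tested.

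**Figure D2:**
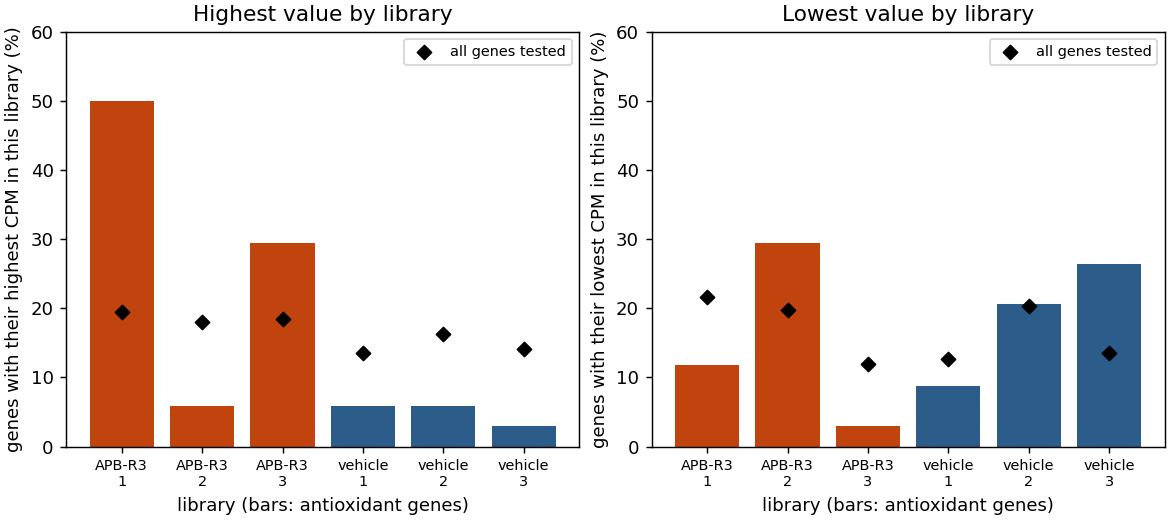
Share of genes (y axis, %) with their highest (left) or lowest (right) CPM in each of the 6 libraries (x axis), as bars for the 34 antioxidant genes and as diamonds for all genes tested. APB-R3 replicate 1 holds the highest value of 17 of the 34 genes, APB-R3 replicate 2 the lowest of 10 and vehicle replicate 3 the lowest of 9.

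**Figure D3:**
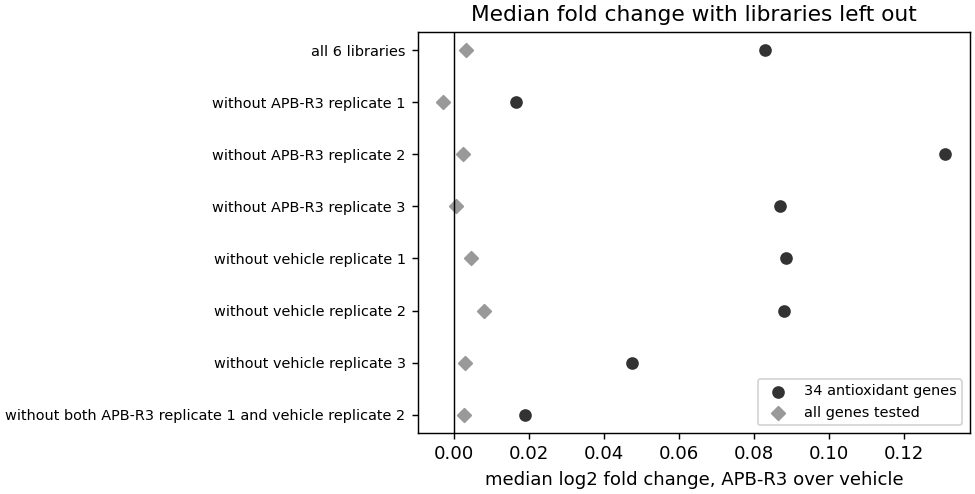
Median log2 fold change (APB-R3 over vehicle, x axis) with all 6 libraries and with libraries left out (y axis), as circles for the 34 antioxidant genes and as diamonds for all genes tested. The median of the antioxidant genes is 0.083 with all libraries and 0.016 without APB-R3 replicate 1.

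The regulators were well counted and differed little. Nfe2l2, the gene of NRF2, had 349, 352 and 349 CPM with APB-R3 and 343, 386 and 380.2 CPM with vehicle. The APB-R3 libraries were almost level and lay inside the range of vehicle. For Nfe2l2 the log2 fold change was −0.08 (SE 0.09, edgeR adjusted p = 0.9998), with a 95% interval from −0.26 to 0.10. Keap1, the gene of the inhibitor, had 108, 85.2 and 109 CPM with APB-R3 and 98.4, 99.8 and 94.98 CPM with vehicle. Here APB-R3 replicate 2 was the lowest of all libraries and the other APB-R3 libraries were the highest. The log2 fold change of Keap1 was 0.04 (SE 0.11), turning to −0.025 when APB-R3 replicate 1 was left out and to −0.0089 when replicate 3 was. NRF2 itself is known to be controlled mainly through protein stability, which transcript counts do not show.

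Genes often used as readouts of NRF2 had unequal levels. By mean CPM among all genes tested, Nqo1 lay at percentile 19.4, Osgin1 at 45.1 and Hmox1 at 79.4. Nqo1, a quinone reductase, had 51, 46 and 47 counts with APB-R3 and 36, 25 and 50 counts with vehicle, or 6.13, 4.26 and 4.67 CPM with APB-R3 and 3.45, 2.36 and 4.76 CPM with vehicle. The highest library was APB-R3 replicate 1 and the lowest vehicle replicate 2, and vehicle replicate 3 lay above APB-R3 replicates 2 and 3. Its log2 fold change of 0.50 (SE 0.38) was the largest of the 34 genes, had an edgeR adjusted p of 0.9998 and an interval from −0.28 to 1.29, and ran from 0.29 (without vehicle replicate 2) to 0.77 (without vehicle replicate 3) with 1 library left out. Without both APB-R3 replicate 1 and vehicle replicate 2 it was 0.12. Hmox1, the haem oxygenase that breaks haem down to biliverdin, iron and carbon monoxide, had 88.9, 65.9 and 77.0 CPM with APB-R3 and 65.2, 74.4 and 79.7 CPM with vehicle. The groups overlapped over most of their range. The log2 fold change of Hmox1 was 0.07 (SE 0.12), and it was −0.047 without APB-R3 replicate 1 and −0.0064 without vehicle replicate 1. Osgin1, an oxidative stress-induced growth inhibitor, averaged 16.9 ± 2.85 CPM with APB-R3 and 17.7 ± 1.67 CPM with vehicle (SD, n = 3 each).

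Glutathione is made by glutamate-cysteine ligase, whose catalytic and modifier subunits are encoded by Gclc and Gclm, from cysteine that the cystine importer Slc7a11 supplies, and glutathione reductase, Gsr, recycles it. Gclm had 48.4, 51.1 and 62.8 CPM with APB-R3 and 56.8, 52.8 and 52.4 CPM with vehicle. The APB-R3 libraries lay on both sides of all vehicle libraries. Its log2 fold change was −0.0024 (SE 0.12), with an interval from −0.25 to 0.25, and leaving out APB-R3 replicate 1, APB-R3 replicate 2 or vehicle replicate 1 gave 0.063, 0.032 and 0.032. Gclc averaged 44.0 ± 3.41 CPM with APB-R3 and 47.7 ± 5.65 CPM with vehicle, and Gsr 48.7 ± 10.003 CPM with APB-R3 and 46.6 ± 2.12 CPM with vehicle (SD, n = 3 each).

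Slc7a11 was the gene of this group whose APB-R3 libraries differed most from each other. It had 35.7, 14.9 and 22.0 CPM with APB-R3 and 21.6, 21.4 and 22.7 CPM with vehicle. APB-R3 replicate 1 was the highest of the 6 libraries, APB-R3 replicate 2 the lowest, and the vehicle libraries were nearly level. The log2 fold change was 0.13 (SE 0.22, edgeR adjusted p = 0.9998), and −0.26 without APB-R3 replicate 1. The high value was in the same library as the high inflammatory genes, and their part in it was not tested.

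Among the enzymes that use glutathione, Gpx1, the cytosolic glutathione peroxidase, was next to Gstm1 in level, at 161 ± 11.8 CPM with APB-R3 and 151 ± 15.9 CPM with vehicle. Gpx4, which reduces lipid hydroperoxides in membranes and guards against ferroptosis, averaged 41.7 ± 6.09 CPM with APB-R3 and 41.7 ± 4.59 CPM with vehicle. The glutathione transferase Gstm1 averaged 213 ± 22.0 CPM with APB-R3 and 208 ± 19.2 CPM with vehicle (SD, n = 3 each). Gsta4, a transferase for lipid peroxidation products such as 4-hydroxynonenal, had only 32, 24 and 26 counts with APB-R3 and 31, 20 and 15 counts with vehicle. It was the lowest of the 34 genes, and the interval of its log2 fold change ran from −0.58 to 1.47. In these 4 genes the groups overlapped.

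The thioredoxin system passes electrons from NADPH through thioredoxin reductase, Txnrd1, to thioredoxin, Txn1, and on to peroxiredoxins, while sulfiredoxin, Srxn1, restores overoxidized peroxiredoxins. Txn1 averaged 492 ± 79.6 CPM with APB-R3 and 461 ± 15.2 CPM with vehicle, and its spread with APB-R3 came from 575 CPM in replicate 1 and 416 CPM in replicate 2. Txnrd1 averaged 220.3 ± 19.2 CPM with APB-R3 and 228 ± 19.3 CPM with vehicle. Srxn1 averaged 109.5 ± 9.61 CPM with APB-R3 and 100.2 ± 18.4 CPM with vehicle, with its lowest value, 79.2 CPM, in vehicle replicate 3 (SD, n = 3 each). None of the 3 separated the groups.

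Peroxiredoxins reduce hydrogen peroxide and organic peroxides, and all 6 were counted at very unequal levels. Prdx1, a cytosolic member, had 974.9, 1010.1 and 1208 CPM with APB-R3 and 1035, 1104 and 865 CPM with vehicle. APB-R3 replicate 3 was the highest library and vehicle replicate 3 the lowest, with the others mixed between. For Prdx1 the log2 fold change was 0.08 (SE 0.10), and −0.0072 without APB-R3 replicate 3 and −0.018 without vehicle replicate 3. Without both APB-R3 replicate 1 and vehicle replicate 2 it was 0.22, with an unadjusted edgeR p of 0.0189 and an adjusted p of 0.9991.

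The other peroxiredoxins had lower levels, and their steadiness differed. Prdx5, which is found in several organelles, was the steadiest of the 34 genes, at 402 ± 9.21 CPM with APB-R3 and 401 ± 14.0 CPM with vehicle. Prdx2, cytosolic like Prdx1, averaged 276 ± 21.7 CPM with APB-R3 and 256 ± 9.70 CPM with vehicle. Prdx6, which also acts as a phospholipase, averaged 206 ± 38.4 CPM with APB-R3 and 192 ± 9.90 CPM with vehicle, with 249 CPM in APB-R3 replicate 1. Prdx4 of the endoplasmic reticulum averaged 59.8 ± 3.58 CPM with APB-R3 and 62.2 ± 3.35 CPM with vehicle. Mitochondrial Prdx3 averaged 13.6 ± 2.11 CPM with APB-R3 and 11.8 ± 0.990 CPM with vehicle (SD, n = 3 each). In all 5 the groups overlapped.

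NADPH is supplied to these enzymes by the pentose phosphate pathway and by malic enzyme. Glucose-6-phosphate dehydrogenase, G6pdx, the first enzyme of that pathway, averaged 33.6 ± 2.67 CPM with APB-R3 and 30.6 ± 4.68 CPM with vehicle. The next dehydrogenase, Pgd, averaged 158 ± 26.1 CPM with APB-R3 and 148 ± 16.5 CPM with vehicle. Of the enzymes of the nonoxidative branch, transaldolase, Taldo1, averaged 600.1 ± 49.5 CPM with APB-R3 and 565 ± 28.7 CPM with vehicle. Malic enzyme, Me1, averaged 34.4 ± 4.58 CPM with APB-R3 and 35.1 ± 2.11 CPM with vehicle (SD, n = 3 each). Transketolase, Tkt, had the lowest log2 fold change of the 34 genes, −0.16 (SE 0.11, edgeR adjusted p = 0.9998), with 84.0, 67.9 and 84.97 CPM with APB-R3 and 89.7, 89.6 and 83.5 CPM with vehicle. Here APB-R3 replicate 2 was the lowest library, and the other APB-R3 libraries lay just above vehicle replicate 3.

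Superoxide dismutases turn superoxide into hydrogen peroxide, and catalase removes the peroxide. Sod2, the mitochondrial manganese enzyme, had 123, 91.9 and 78.8 CPM with APB-R3 and 80.0, 67.5 and 71.0 CPM with vehicle. APB-R3 replicates 1 and 2 lay above all vehicle libraries, and APB-R3 replicate 3 lay just below vehicle replicate 1. The means were 98.0 ± 22.8 CPM with APB-R3 and 72.8 ± 6.41 CPM with vehicle (SD, n = 3 each). Sod2 had a log2 fold change of 0.42 (SE 0.13) with an interval from 0.14 to 0.70, an unadjusted edgeR p of 0.00494 and an adjusted p of 0.9998. It stayed above 0 with each library left out, between 0.22 and 0.57. Without APB-R3 replicate 1 it was 0.22, with an unadjusted edgeR p of 0.0711 and an adjusted p of 0.9997.

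Beside Sod2, 15 of 16 listed inflammatory genes had a log2 fold change above 0, against 50.7% of all genes tested. An unadjusted edgeR p under 0.05 was reached by 10 of the 16 (9 higher and 1 lower), against 3.33% of all genes tested. None passed the adjusted threshold, and the median log2 fold change of the 16 was 0.70. The list came from general knowledge but with earlier results of these data known, so its counts are only a description. Without APB-R3 replicate 1, an alternative chosen after the values were seen, 7 of the 16 were above 0, 4 had an unadjusted p under 0.05 (3 higher and 1 lower), and the median was −0.0076. Cxcl2, a neutrophil chemokine gene induced through NF-kB, had 260.5 CPM in APB-R3 replicate 1 and 46.0 and 50.03 CPM in the other APB-R3 libraries, against 59.7, 44.4 and 39.0 CPM with vehicle. It had a log2 fold change of 1.30 with all libraries, which ran from −0.0051 to 1.69 with 1 library left out. Nfkbia, the gene of the NF-kB inhibitor, had 1207, 900.8 and 829.7 CPM with APB-R3 and 904, 891 and 797 CPM with vehicle. Both genes had their highest value in the library where Sod2 was highest, and the part of these genes' signal in the value of Sod2 was not tested. The 13 macrophage markers had a sum of 496 CPM in that library and 708 CPM in APB-R3 replicate 3. Which cells the inflammatory signal came from was not tested. Cytosolic Sod1 averaged 457 ± 18.2 CPM with APB-R3 and 421 ± 21.2 CPM with vehicle, and catalase, Cat, 59.3 ± 5.28 CPM with APB-R3 and 55.7 ± 0.937 CPM with vehicle (SD, n = 3 each). In both the groups overlapped.

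Ferritin stores iron in a form that cannot feed radical chemistry, and its subunit genes were the most counted of the 34. Since the 3′ end kit reads 1 fragment per transcript, CPM values of genes need no division by length to be set beside each other. Reads shared with pseudogenes or related genes still limit such a comparison, since the counting options are not given. Fth1, the heavy chain, had 3112, 2498 and 3249 CPM with APB-R3 and 2813, 2635 and 3075 CPM with vehicle, the highest level of all 34. The APB-R3 libraries held both the highest and the lowest values. Fth1 had a log2 fold change of 0.05 (SE 0.09) and −0.012 without APB-R3 replicate 3. Ftl1, the light chain, had 1131, 1178 and 1087 CPM with APB-R3 and 1120.1, 1024 and 969.6 CPM with vehicle. APB-R3 replicate 3 lay below vehicle replicate 1, so the groups overlapped, with a log2 fold change of 0.12 (SE 0.08, interval −0.06 to 0.30). Ferritin genes have processed pseudogenes that can take reads, and Ftl1-ps2 held 248 counts over the 6 libraries against 65780 for Ftl1. Pseudogenes were searched by symbol only, and those under other names were not looked for.

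Metallothioneins are small cysteine-rich proteins that bind zinc and copper and scavenge radicals. Mt1 was the only one of the 34 genes whose groups did not overlap, with 459, 402 and 389.8 CPM with APB-R3 and 377, 366 and 382 CPM with vehicle. The gap between the lowest APB-R3 and the highest vehicle library was small, and 4.75% of all genes tested were likewise higher in every APB-R3 library. Mt1 had a log2 fold change of 0.15 (SE 0.09, edgeR adjusted p = 0.9998), with an interval from −0.04 to 0.33, and 0.06 without APB-R3 replicate 1. Mt2 had 342, 305 and 294 CPM with APB-R3 and 316, 253 and 304 CPM with vehicle. APB-R3 replicate 1 was highest and vehicle replicate 2 lowest, and the groups overlapped. The log2 fold change of Mt2 was 0.10 (SE 0.10), and −0.051 without both APB-R3 replicate 1 and vehicle replicate 2. An antisense gene overlaps the 3′ end of Mt2 in GENCODE M21, and the strand setting of the counting is not given in the sources used here.

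**Figure D4:**
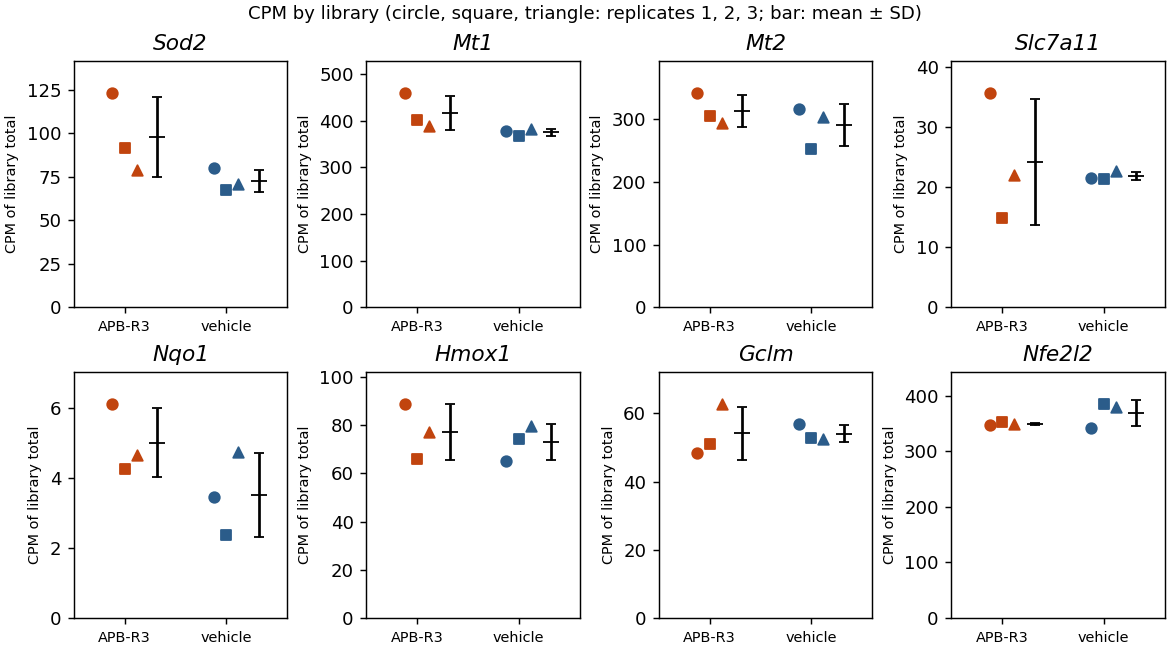
CPM of library total (y axes, from 0) of 8 genes in the APB-R3 (left) and vehicle (right) libraries, with circles, squares and triangles for replicates 1, 2 and 3 and bars for the mean ± SD of 3 libraries. Slc7a11 spreads from 14.9 to 35.7 CPM with APB-R3, and Mt1 alone of the 8 has no overlap between the groups.

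**Figure D5:**
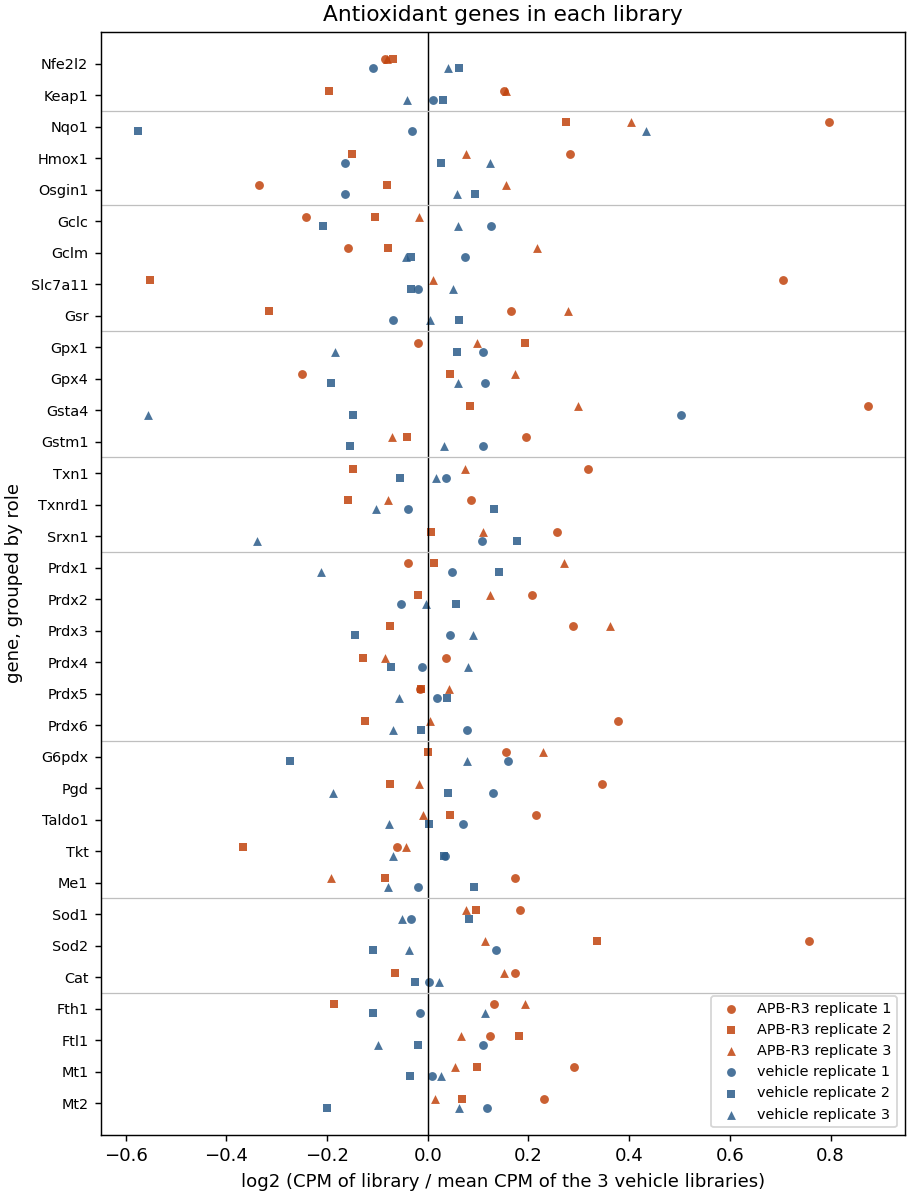
Log2 ratio of each library's CPM to the mean CPM of the 3 vehicle libraries (x axis) for the 34 genes (y axis, grouped by role), with APB-R3 in orange and vehicle in blue. APB-R3 replicate 1 (orange circles) lies farthest to the right in Sod2, Slc7a11, Nqo1 and Gsta4.

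Genes with and without the promoter motif had nearly the same median fold change. The 10 genes with the antioxidant core had a median log2 fold change of 0.086, between −0.08 and 0.13, and 6 of them were above 0. The 19 genes whose windows did not hold it had a median of 0.084, between −0.16 and 0.50, and 14 of them were above 0. These values are a description and were not tested.

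Beyond the 34 genes, 122 further genes of the pathway were listed by function from general knowledge, with earlier results of these data known, and 107 of them were tested. None passed the adjusted threshold (edgeR), with 0 higher and 0 lower. An unadjusted p under 0.05 was reached by 5 genes, 0 of them higher and 5 lower with APB-R3, against 3.33% of all genes tested, 1.75% higher and 1.57% lower. With both directions together, the share of the 107 is somewhat above that of all genes. By direction, the lower share is above that of all genes and the higher share below it. These are few genes, none of them called, and the genes named next are given as values. In all, 58 of the 107 had a log2 fold change above 0, with a median of 0.0054, close to the 50.7% and 0.0032 of all genes tested. The groups did not overlap in 4 of the 107 that were higher with APB-R3 and in 4 that were lower. Of all genes tested, 4.75% separated upward and 4.16% downward.

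Among partners and controllers of NRF2, 1 of 14 tested genes had an unadjusted p under 0.05. Maff, a small MAF protein that pairs with NRF2 on its elements, had 41.1, 34.005 and 40.5 CPM with APB-R3 and 49.6, 45.1 and 54.2 CPM with vehicle. Every vehicle library was above every APB-R3 library, a separation in this direction that 4.16% of all genes tested showed. Maff had a log2 fold change of −0.37 (SE 0.13), between −0.43 and −0.29 with 1 library left out, and the edgeR adjusted p was 0.9998. Its relative Mafk averaged 42.2 ± 3.68 CPM with APB-R3 and 44.7 ± 0.794 CPM with vehicle (SD, n = 3 each).

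Among 33 tested genes of glutathione synthesis, use and export, Gstm7 alone had an unadjusted p under 0.05. This glutathione transferase had 3.96, 3.06 and 3.87 CPM with APB-R3 and 5.66, 6.81 and 6.09 CPM with vehicle, without overlap, and a log2 fold change of −0.78 (SE 0.33, edgeR adjusted p = 0.9998). Its sequence is close to that of other Gstm genes, so its counts are uncertain. Of the 17 tested genes of the thioredoxin, methionine sulfoxide and NADPH list, Msrb3, a methionine sulfoxide reductase, had 149, 147 and 159 CPM with APB-R3 and 176, 172 and 171 CPM with vehicle. The groups did not overlap, and the log2 fold change was −0.20 (SE 0.09, edgeR adjusted p = 0.9998).

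Of 14 tested quinone, carbonyl and drug-metabolizing enzymes, the carbonyl reductase Cbr3 had 15.1, 12.6 and 18.5 CPM with APB-R3 and 20.4, 21.8 and 20.1 CPM with vehicle. The groups did not overlap, and the log2 fold change was −0.44 (SE 0.18, edgeR adjusted p = 0.9998). Of 15 tested genes of haem, iron and metal handling, Hpx, the haem-binding plasma protein of hepatocytes, had an unadjusted p under 0.05. It had 0.240, 0.185 and 0.993 CPM with APB-R3 and 0.959, 18.9 and 1.14 CPM with vehicle, so that its high value lay in vehicle replicate 2, where hepatocyte markers were also high. The part of the hepatocyte signal in this value was not tested. For Hpx the log2 fold change was −3.86 with all libraries and ran from −4.99 to −1.12 with 1 library left out. Of 14 tested genes of superoxide and peroxide control none had an unadjusted p under 0.05. The lowest p was that of Pon2, a lactonase that lowers oxidative stress, with 109, 110.3 and 103 CPM with APB-R3 and 95.7, 93.2 and 92.6 CPM with vehicle and a log2 fold change of 0.19 (SE 0.10, edgeR adjusted p = 0.9998). Every APB-R3 library was above every vehicle library in Pon2.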

How the data were processed

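Libraries were Lexogen QuantSeq 3′ libraries, per the labels' protocols. Per the submitters' processing notes, the tools were bcl2fastq 2.20.0.422, fastp, STAR and HTSeq and the build GRCm39; the sources used here do not give other versions, options, the annotation release, strand setting or use of molecular identifiers. The authors deposited counts, whole numbers per gene symbol with no normalization. The number in each file header is 1 higher than in the title; the title was used. Levels are CPM of the library total. Of 20496 genes with a count, 12776 passed filterByExpr (minimum count 10, minimum total 15) and were tested in edgeR 4.0.16 (R 4.3.3) with TMM factors, glmQLFit and glmQLFTest, treatment as the only term, and Benjamini-Hochberg adjustment over all genes (threshold 0.05, two-sided). The SE is the log2 fold change over the square root of F. Precision is limited by 3 libraries a group; 95% intervals come from the fit.

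Scripts were tested on simulated data. The genes and lists were chosen with earlier results of these data known. Values in every library were given for genes without overlap or at an unadjusted p under 0.05, the 3 highest genes and 9 named readouts; Tkt was added after its value was seen, as were Prdx1 without 2 libraries, Cxcl2, Nfkbia and Mafk. From each pathway list came up to 3 genes at an unadjusted p under 0.05 whose higher group averaged 5 CPM or more, or else the lowest p. The values of Acta2 in every library were given outside these rules. No 2 libraries were copies of each other (chi-square per degree of freedom 5.54 to 13.6). No batch or date is given. Alternatives were other scaling (DESeq2 size factors, library size), other filters, DESeq2 1.42.0, limma-voom (limma 3.58.1), a replicate block, thinned counts and left-out libraries.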

Additional observations from a re-analysis of the deposited data

How the results depend on the processing

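None of the 34 genes passed the adjusted threshold under any alternative. With no low-count filter 20 genes passed and 695 had an unadjusted p under 0.05. Of the pathway genes 1 passed, Hpx (log2 fold change −3.86, edgeR adjusted p = 4.62e-11). Its level was 18.9 CPM in vehicle replicate 2 and 0.185 to 1.14 CPM in the other libraries, so 1 library carried this difference. With 1 library left out, between 0 and 1 genes passed and between 369 and 674 had an unadjusted p under 0.05; of the 34 genes 0 to 2 did, with 0 without APB-R3 replicate 1 and 2, Sod2 and Mt1, without APB-R3 replicate 3. Groups that did not overlap then came to between 2287 and 2758 genes, 3 to 8 of them among the 34, since fewer libraries overlap less often. With 1 library left out, the log2 fold change ran from −0.11 to 0.063 for Gclm, −0.025 to 0.14 for Keap1, −0.047 to 0.17 for Hmox1, −0.26 to 0.39 for Slc7a11, −0.012 to 0.15 for Fth1 −0.018 to 0.17 for Prdx1 and 0.023 to 0.16 for Mt2. That of Gclm was also turned by library size scaling (0.0043) and by thinned counts (0.0019). Without both APB-R3 replicate 1 and vehicle replicate 2, it was 0.057 for Gclm, 0.22 for Prdx1, −0.26 for Slc7a11, −0.051 for Mt2, −0.038 for Fth1 and −0.022 for Hmox1; the cause was not tested. The replicate block gave a median log2 fold change of 0.078, 0 calls and 539 genes at an unadjusted p under 0.05. Deviations from the group mean correlated at 0.041 to 0.063 between same-numbered libraries and at −0.049 to −0.0057 between differently numbered ones. No label says that a number marks a pair, so the main fit has no block, and whether they are pairs is not known. Under the block Sod2 had a log2 fold change of 0.40, with an unadjusted edgeR p of 0.000421 and an adjusted p of 0.336. For the 16 inflammatory genes, the median turned to −0.0076 and the number above 0 to 7 without APB-R3 replicate 1, chosen after seeing the data. Groups of 3 limit what can be called.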

Other observations

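Enzymes that make superoxide or nitric oxide were looked at beside the antioxidant genes. Of 14 such genes, 10 were tested and 0 passed edgeR's adjusted threshold or had an unadjusted p under 0.05. Of all genes tested, 3.33% had an unadjusted p under 0.05. Nox4, an oxidase not particular to stellate cells, had 39.5, 48.6 and 59.8 CPM with APB-R3 and 48.8, 43.0 and 56.5 CPM with vehicle, with overlap. Cybb, the catalytic subunit of the phagocyte oxidase, had 44.5, 37.1 and 54.4 CPM with APB-R3 and 44.5, 55.2 and 36.1 CPM with vehicle. Its membrane partner Cyba had 125, 92.0 and 127 CPM with APB-R3 and 121.7, 121.6 and 117 CPM with vehicle. Rac1, a GTPase that also activates oxidases, had 351, 345 and 351 CPM with APB-R3 and 364, 380.3 and 375 CPM with vehicle. It was the only gene of the list without overlap. The groups did not overlap in 8.91% of all genes tested, and in 4.16% of all genes tested they separated downward, as in Rac1. The log2 fold change of Rac1 was −0.10 (SE 0.08, edgeR adjusted p = 0.9998). Nos3, the endothelial nitric oxide synthase, had 66.0, 70.5 and 63.03 CPM with APB-R3 and 70.0, 48.4 and 65.4 CPM with vehicle. Nox1, Nox3 and Duox1 had no count in any library.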
